A study of Mus musculus with 11 samples.

Results

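Protocadherins, the largest group within the cadherin superfamily of adhesion proteins, were followed through single-nucleus RNA from mouse brain. The members were all gene symbols in the deposited gene list that start with Pcdh, with antisense and pseudogene names left out. That gave 68 of 25938 genes: 14 alpha, 21 beta and 21 gamma entries of the clustered families, and 12 others. The 12 others comprised 4 delta-1 genes (Pcdh1, Pcdh7, Pcdh9 and Pcdh11x), 5 delta-2 genes (Pcdh8, Pcdh10, Pcdh17, Pcdh18 and Pcdh19), and Pcdh12, Pcdh15 and Pcdh20. All animals carried a homozygous human transferrin receptor knock-in, per the labels, and received 4 weekly intravenous doses. Their brains were taken 72 h after the last dose. The control group ATV:BACE1 received a transferrin receptor-binding molecule without an antisense oligonucleotide (ASO) at 57 mg/kg (n = 3). Its label also names BACE1, and the part of that in the contrasts was not tested. No group was left undosed, so every contrast compares dosed animals. OTV:Malat1, a transferrin receptor-binding vehicle that carries an ASO against the noncoding RNA Malat1, was given at 60 mg/kg (n = 3). The nonTV:Malat1 group received the ASO on a molecule without receptor binding at 60 mg/kg (n = 3), and the Malat1 ASO group received the free ASO at 2.5 mg/kg (n = 2). Libraries numbered replicate 1 came from females of 2.33 months, those numbered 4 from males of 2.57 months and those numbered 5 from males of 2.33 months. Replicate number and the deposited batch number run together. Sex and age are each fixed within a replicate number, so their parts cannot be told apart from that of the batch. Each library is 1 labelled animal, so n counts libraries.

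Clustered protocadherins lie in tandem arrays. Each alpha or gamma transcript joins 1 variable first exon to constant exons that its whole family shares, whereas most beta genes are a single exon. Neurons switch on few variable promoters each, a choice made by CTCF, cohesin and DNA methylation, and the proteins they make recognise copies of themselves on neighbouring membranes. The C-type members at the end of the alpha and gamma arrays are known to be less random in their use. Nonclustered delta protocadherins act in cell sorting, axon growth and synapse formation, and several bind the WAVE complex that builds branched actin. Pcdh15 is best known as part of the tip link of inner ear hair cells and is also a familiar transcript of oligodendrocyte precursor cells.

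The libraries held 33235994 to 43972886 unique molecular identifiers (UMIs, each a captured RNA molecule) from 7546 to 13840 nuclei. In all there were 110304 nuclei with a median of 2859 UMIs, and the authors' doublet call marked 10.376% of them. Of 108788 distinct barcode sequences, 1495 occurred in more than 1 library. The dosing labels were checked on Malat1, the target of the ASO. In all nuclei Malat1 stood at 74472, 75402 and 83826 CPM (a gene's UMIs per 1000000 UMIs) in the ATV:BACE1 libraries and at 49460, 40041 and 50348 CPM in the OTV:Malat1 libraries. The nonTV:Malat1 libraries had 74885, 76089 and 83899 CPM and the Malat1 ASO libraries 78737 and 81479 CPM, so that only the OTV:Malat1 libraries lay below all others. The class names used here are the authors' predicted cell types. Astrocyte, oligodendrocyte, microglia and leptomeningeal markers were highest in the classes of those names, but 2 names were not borne out alone. Nuclei named pericytes carried 10724 CPM of endothelial markers beside 6354 CPM of pericyte markers, and nuclei named Glia carried choroid plexus markers at 9755 CPM. The Pcdh levels of these 2 classes are those of the named set, and the part of other cell types in them was not tested.

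Most protocadherin RNA came from a handful of nonclustered genes. Delta-1 genes gave 2254196 UMIs, which is 0.552% of all UMIs, against 120256 for delta-2 genes, 296842 for Pcdh12, Pcdh15 and Pcdh20 together, and 7803, 19892 and 22317 for the alpha, beta and gamma families. Pcdh9 made up 80.1% of delta-1 UMIs, Pcdh17 47.6% and Pcdh10 36.9% of delta-2 UMIs, and Pcdh15 99.5% of the last group. In all nuclei 8 members reached 10 CPM (Pcdh1, Pcdh7, Pcdh9, Pcdh10, Pcdh11x, Pcdh15, Pcdh17 and Pcdh19), 37 lay from 1 to under 10 CPM and 23 lay below 1 CPM. The lowest was Pcdh12 with 61 UMIs. The highest clustered member, Pcdhga12, reached 9.48 CPM. Long genes collect more reads in nuclear RNA where intronic reads are counted, so the 12 nonclustered genes were compared per 100 kb of gene span. Whether intronic reads were counted here is not stated in the sources used. Among these 12 Pcdh9 led with 505 CPM per 100 kb in all nuclei, followed by Pcdh7 with 212, Pcdh10 with 190 and Pcdh17 with 147, whereas Pcdh15 had 46.8 and Pcdh11x 31.7. In the GENCODE M21 annotation of the mm10 build, Pcdh9 spans chr14:93013410-93890679 on the minus strand and Pcdh15 chr10:73099342-74649737 on the plus strand.

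Pcdh9, highest in oligodendrocytes, and Pcdh18 and Pcdh19, highest in vascular classes, are examples of a glial and a vascular pattern, and their promoters are shown for that reason. The choice was made after the levels were seen, and Pcdh18 lies outside the rule for named genes. The windows run from 250 bases before to 50 bases after the RefSeq start (GRCm38.p6), are written 5′ to 3′ on the gene's strand, and capitals mark CCAAT or GGGCGG on either strand. Pcdh9 lies at chr14:93890630-93890929, Pcdh18 at chr3:49757267-49757566 and Pcdh19 at chrX:133688944-133689243, all on the minus strand.
Pcdh9: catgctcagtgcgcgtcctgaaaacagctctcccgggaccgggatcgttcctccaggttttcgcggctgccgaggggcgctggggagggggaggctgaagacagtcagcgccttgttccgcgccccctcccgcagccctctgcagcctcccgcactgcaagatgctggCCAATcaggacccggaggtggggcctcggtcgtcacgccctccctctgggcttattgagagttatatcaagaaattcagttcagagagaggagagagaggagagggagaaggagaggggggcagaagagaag
Pcdh18: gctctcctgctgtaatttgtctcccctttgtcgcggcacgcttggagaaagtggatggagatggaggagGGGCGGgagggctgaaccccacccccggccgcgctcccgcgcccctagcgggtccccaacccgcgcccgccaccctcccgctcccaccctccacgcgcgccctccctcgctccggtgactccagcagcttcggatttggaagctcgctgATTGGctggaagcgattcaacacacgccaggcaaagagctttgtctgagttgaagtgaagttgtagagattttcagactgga
Pcdh19: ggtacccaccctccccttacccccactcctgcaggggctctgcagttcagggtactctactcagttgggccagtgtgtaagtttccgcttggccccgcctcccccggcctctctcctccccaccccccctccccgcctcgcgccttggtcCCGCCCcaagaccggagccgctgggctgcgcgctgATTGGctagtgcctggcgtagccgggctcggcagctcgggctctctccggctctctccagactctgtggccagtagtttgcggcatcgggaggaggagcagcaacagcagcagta
Each window held 1 CCAAT match, and Pcdh18 and Pcdh19 each held 1 GGGCGG match. The capitals do not overlap in any of the 3. CCAAT occurred in 37.4% and GGGCGG in 35.7% of 32851 promoter windows of the same length. None of the 3 held TATAAA, which 13.6% of the windows had. They held 18, 23 and 18 CpG pairs, against a median of 7 over all windows. These matches describe the letters only.

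Among the delta-1 genes, Pcdh9 was highest in oligodendrocytes. In oligodendrocytes its level ran from 11431 to 14754 CPM over the 11 libraries, with a median of 13218 and a mean of 13027 ± 1114 (SD, n = 11). In neurons it ran from 3903 to 4613 CPM with a median of 4124, and in astrocytes from 3373 to 4162 CPM with a median of 3688. The oligodendrocyte values thus lay above every neuron and astrocyte value, and the mean was 3.11-fold that of neurons. Pericytes were lowest, at a mean of 631 CPM, or 406 CPM without the called doublets. The share of nuclei with at least 1 Pcdh9 UMI, after thinning each nucleus to 1000 UMIs, was 99.6% in oligodendrocytes, 92.2% in astrocytes, 87.7% in neurons and 23.0% in pericytes. Without thinning the shares were 99.7%, 92.6%, 95.5% and 34.9%. Free RNA can place UMIs of an abundant transcript in any nucleus: Nrgn, a transcript of excitatory neurons, stood at 281 CPM in astrocytes and 374 CPM in vascular endothelium against 196 CPM in neurons. No class here is known to lack Pcdh9, so its low values in vessels are not read as expression. Thinning left out 55.0% of oligodendrocytes, whose median was 947 UMIs, against 3.03% of neurons. Classes and clusters were made from the RNA of these same nuclei, so levels across them are described without a test.

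**Figure D1:**
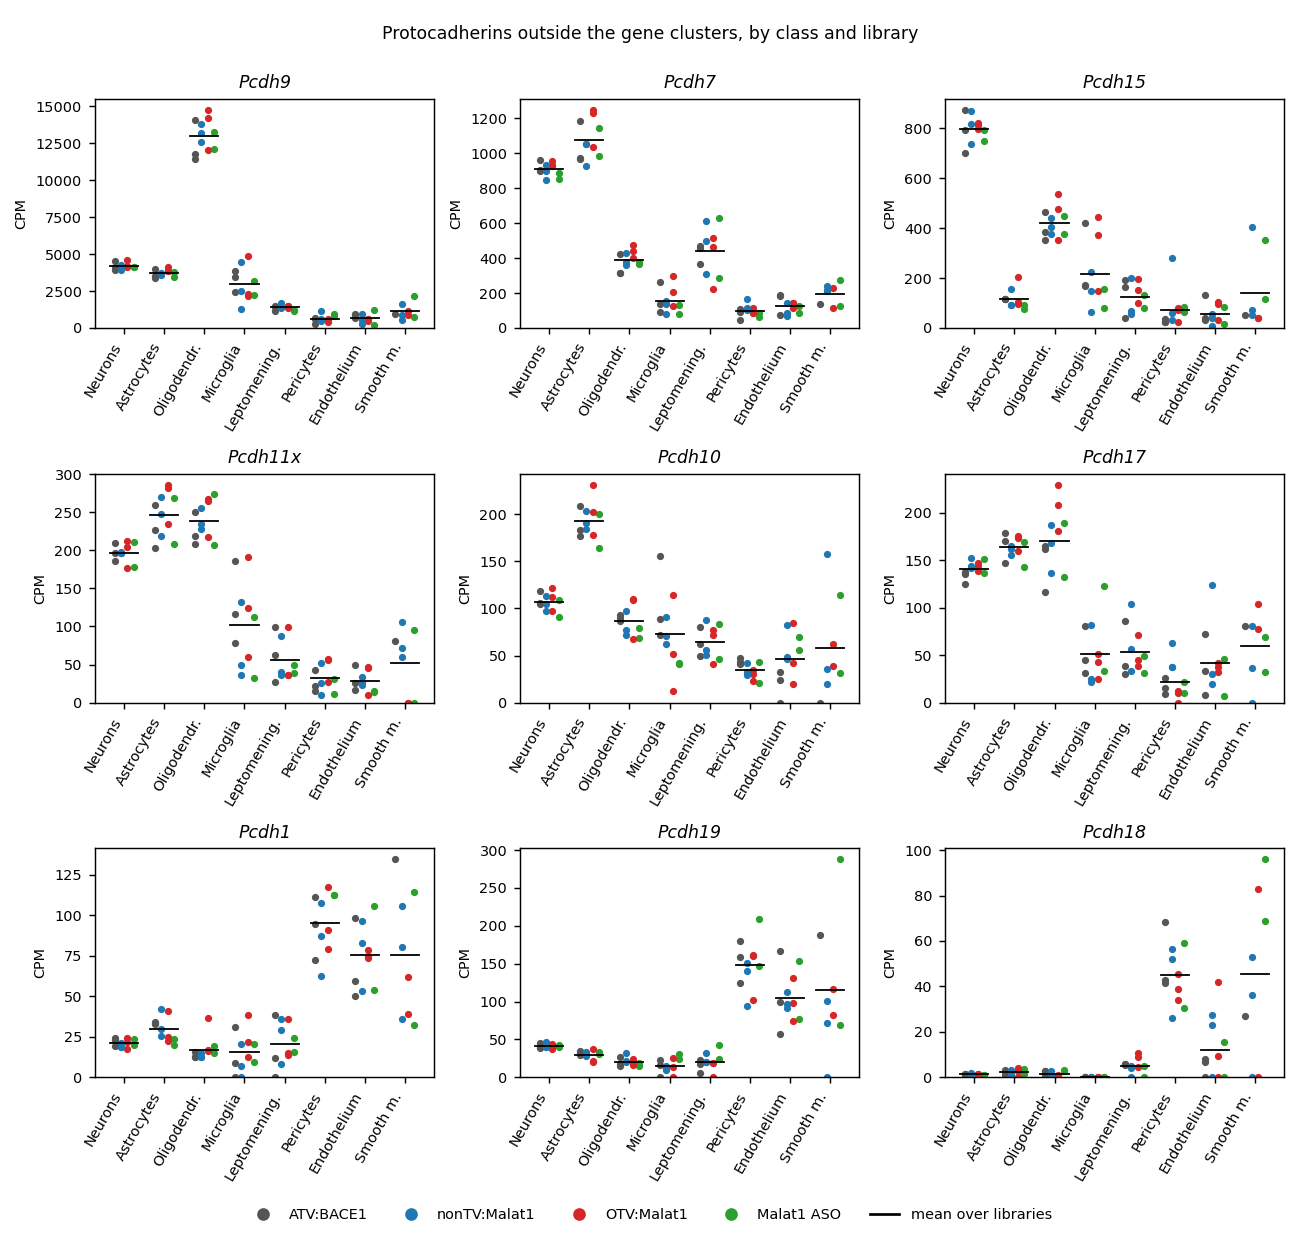
Levels of 9 nonclustered protocadherins in the authors' cell classes, in CPM, with 1 point for each library and bars at the mean. Pcdh9 sits highest in oligodendrocytes (11431 to 14754 CPM), Pcdh15 in neurons, Pcdh10 in astrocytes, and Pcdh1, Pcdh18 and Pcdh19 in vascular classes.

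Pcdh7, an adhesion protein of axons and dendrites, was highest in astrocytes at a mean of 1074 CPM (927 to 1249), next to neurons at 908 CPM (848 to 959). Those 2 ranges overlap, although the astrocyte value was the higher in 11 of 11 libraries. Oligodendrocytes were lower and separate from both, at 388 CPM (312 to 474). Pcdh11x, an X-linked gene, hardly separated the 3 main classes: astrocytes had 246 CPM, oligodendrocytes 239 CPM and neurons 197 CPM, with overlapping ranges between neighbours. Pcdh1, a protocadherin also known from airway epithelium, followed blood vessels. It stood at 95.3 CPM in pericytes (62.5 to 117), 75.5 CPM in vascular smooth muscle and 75.2 CPM in vascular endothelium, against 21.1 CPM in neurons (17.7 to 24.5) and 16.8 CPM in oligodendrocytes. The pericyte and neuron ranges did not overlap.

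Delta-2 genes split over astrocytes, oligodendrocytes and vessels. Pcdh10, a WAVE-binding gene of axon pathfinding, was highest in astrocytes, from 164 to 232 CPM with a median of 190, and ran from 90.7 to 122 CPM in neurons with a median of 105. The astrocyte level was 1.81-fold that of neurons, with no overlap. Pcdh17, which acts at synapses and in axon extension, stood at 171 CPM in oligodendrocytes and 164 CPM in astrocytes with overlapping ranges, against 141 CPM in neurons. The oligodendrocyte value depended on the cluster: in cluster 3, which held 12991 of the 14321 oligodendrocytes, Pcdh17 had 115 CPM (84.1 to 153), below neurons in 9 of 11 libraries, and in the 779 of cluster 5, which carried precursor markers, it had 515 CPM. Pcdh19, the gene of an X-linked epilepsy, was highest in pericytes at 148 CPM (93.7 to 209), followed by vascular smooth muscle at 115 CPM and vascular endothelium at 105 CPM. Neurons had 41.2 CPM (37.0 to 46.7), so pericytes lay above neurons in every library. Pcdh18 was scarce outside vessels. It had 45.0 CPM in pericytes (26.2 to 68.3) and 45.4 CPM in vascular smooth muscle, 12 CPM in vascular endothelium, and 1.29 CPM in neurons (0.785 to 2.00). At 1000 UMIs 4.85% of pericytes and 0.139% of neurons had a Pcdh18 UMI, and without thinning 9.57% and 0.581%. The pericyte set holds 930 nuclei in all, and the smooth muscle mean rests on the 8 libraries with at least 20 such nuclei. Pcdh8, known for its regulation by activity, stayed between 2.65 and 8.30 CPM on average in all classes, with its neighbours in order overlapping.

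Pcdh15 had its highest class mean in neurons. In neurons it ran from 701 to 874 CPM with a median of 798, in oligodendrocytes from 352 to 539 CPM with a median of 403, and in astrocytes from 77.3 to 205 CPM with a median of 105. The 3 ranges did not overlap, and the neuron mean was 1.90-fold that of oligodendrocytes and 6.95-fold that of astrocytes. Against the oligodendrocytes of cluster 3 alone, at 213 CPM, the neuron mean was 3.75-fold, since the 779 oligodendrocytes of cluster 5 had 1953 CPM. Vascular endothelium was lowest at 58.0 CPM. Without the called doublets pericytes were lowest at 29.6 CPM, against 55.8 CPM in vascular endothelium. Shares of nuclei with a Pcdh15 UMI at 1000 UMIs were 38.5% in neurons, 21.3% in oligodendrocytes, 5.18% in astrocytes and 3.28% in pericytes. Without thinning they were 60.6%, 20.3%, 7.11% and 6.13%. Pcdh12, known as an endothelial protocadherin, had 7.70 CPM in vascular endothelium and 7.43 CPM in pericytes. These means rest on 12 and 18 UMIs, with 5 and 3 libraries at 0. Neurons had 0.0832 CPM of Pcdh12, and leptomeningeal cells had no UMI, which allows up to 1.07 CPM (3 counts over the class). Pcdh8, Pcdh12 and Pcdh18 were named after their values were seen.

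Read over all members at 1 CPM or more in either class, 6 of 48 were above and 5 of 48 below in neurons against astrocytes with no overlap of the 11 libraries. Over all genes at that level the shares were 16.4% and 23.8%. The 6 were Pcdh15, Pcdh19 and the alpha genes Pcdha1, Pcdha4, Pcdha11.1 and Pcdha12, and the 5 were Pcdh10, Pcdhga1, Pcdhgc3, Pcdhgc4 and Pcdhgc5. Against oligodendrocytes 4 of 46 members were above in neurons (Pcdh7, Pcdh15, Pcdh19 and Pcdha11.1) and 1 was below (Pcdh9), where all genes had 19.6% and 21.7%. Between astrocytes and oligodendrocytes 3 of 42 members were above in astrocytes (Pcdh7, Pcdh10 and Pcdhgc5) and 2 below (Pcdh9 and Pcdh15), where all genes had 12.9% and 8.99%. The members' shares were below those of all genes in each of these comparisons. These shares were not matched for level. In all nuclei 37 members lay from 1 to under 10 CPM, beside 8 at 10 CPM or more. Several of the clustered genes in these counts were named after their values were seen.

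The nuclei named neurons fell mainly into 5 of the authors' clusters, numbered 0, 1, 2, 5 and 9, in which such nuclei were from 71.5% to 99.8% of the total. Cluster 0 was highest in the vesicular glutamate transporter Slc17a7, at 156 CPM. The other listed transporter, Slc17a6, was highest in cluster 1 at 64.3 CPM and stood at 18.5 CPM in cluster 0. Cluster 1 was thus mixed in its markers, since it also carried the GABA-synthesis gene Gad2 at 155 CPM, the interneuron gene Adarb2 at 1676 CPM, and Tcf7l2 at 174 CPM and Lhx9 at 15.6 CPM from the list for cholinergic, midbrain and thalamic neurons. Cluster 2 carried striatal markers, with Rgs9 at 566 CPM, and Gad2 at 135 CPM. Cluster 9 combined Gad2 at 123 CPM with the myelin gene Mbp at 970 CPM, and 41.0% of it were called doublets. In cluster 5 the nuclei named neurons went against their label. The 2343 of them not called doublets carried the oligodendrocyte precursor markers Pdgfra at 336 CPM and Vcan at 415 CPM, against 4.21 and 9.26 CPM in cluster 0. The called doublets of cluster 5 had 20.05 CPM of Pdgfra and 29.7 CPM of Vcan. The clusters are therefore called by number.

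Pcdh15 separated the neuron clusters most among the members above 10 CPM. It ran from 727 to 949 CPM in cluster 0 with a median of 839, from 997 to 1148 CPM in cluster 1 with a median of 1052, and from 228 to 435 CPM in cluster 2 with a median of 330. Cluster 2, with the striatal markers, therefore lay below clusters 0 and 1 in every library, and the mean of cluster 1 was 3.25-fold that of cluster 2. At 1000 UMIs 48.3% of cluster 1 nuclei and 15.5% of cluster 2 nuclei had a Pcdh15 UMI (67.5% and 33.1% without thinning). Cluster 5 was highest at 1166 CPM, 3.57-fold cluster 2, and overlapped cluster 1. Without the called doublets the Pcdh15 level of cluster 5 was 2280 CPM (1064 to 3462) and that of cluster 2 was 249 CPM, a ratio of 9.15. The precursor markers of cluster 5 moved with that value, at a summed 3819 CPM without doublets and 493 CPM in the doublets, and their part in it was not tested.

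Precursor markers and markers of newly formed oligodendrocytes accompanied Pcdh15 among oligodendrocytes. The 779 nuclei named oligodendrocytes in cluster 5 carried Pdgfra at 406 CPM and Lhfpl3 at 3175 CPM, whereas those in cluster 3, the main oligodendrocyte cluster, had 6.33 and 45.9 CPM. The 4 listed markers of newly formed oligodendrocytes summed to 3084 against 1073 CPM, with Bcas1 at 1770 against 778 CPM and Gpr17 at 95.9 against 4.67 CPM. Called doublets were 2.70% of the first set, beside 35.7% of cluster 5 as a whole. The part of these markers in the levels that follow was not tested. Pcdh15 stood at 1953 CPM in the first set (1211 to 2517) and 213 CPM in the second (184 to 266). Pcdh7 followed with 1481 against 207 CPM, Pcdh17 with 515 against 115 CPM and Pcdh11x with 496 against 209 CPM. Pcdh9 went the other way, at 7487 CPM (6299 to 8236) against 14136 CPM (12194 to 16056). None of these 5 pairs of ranges overlapped. The 5 are a selection that leaves out Pcdh1, Pcdh10 and Pcdh19, among other members. The share of all genes without overlap between these sets was not counted, so the 5 are description only. Of the 3 delta-1 genes here, only Pcdh9 was thus higher in the set with mature myelin markers, where Mbp stood at 4357 against 2525 CPM.

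**Figure D2:**
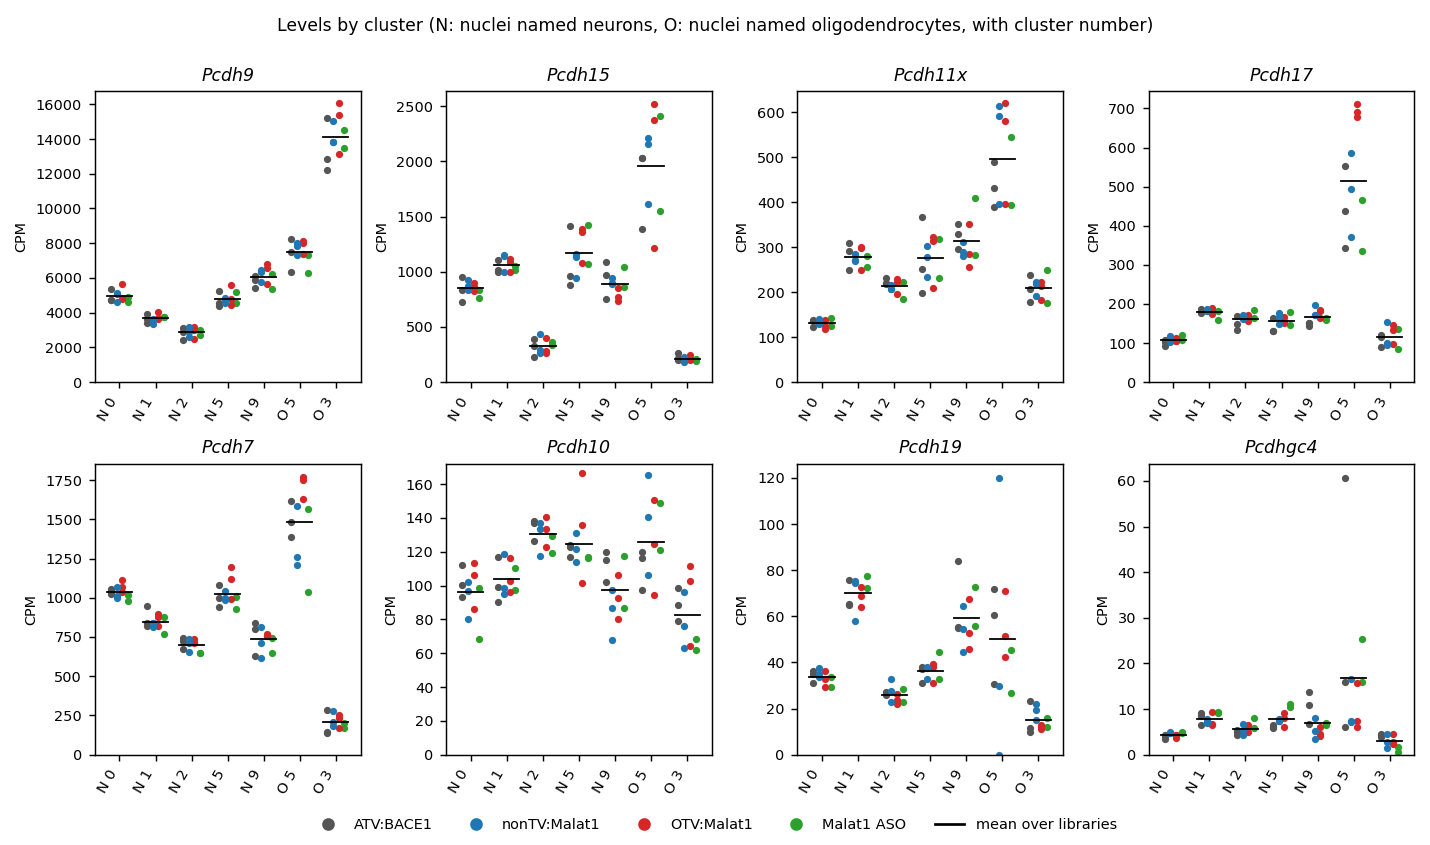
Levels of 8 protocadherins in nuclei named neurons of clusters 0, 1, 2, 5 and 9 and in nuclei named oligodendrocytes of clusters 5 and 3. Values are in CPM, with 1 point for each library and bars at the mean. Pcdh15 is lowest in neurons of cluster 2 and in oligodendrocytes of cluster 3 (213 CPM), and Pcdh9 is highest in oligodendrocytes of cluster 3.

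Clusters 0 and 1 also differed in other members. Pcdh11x had 131 CPM (119 to 142) in cluster 0 and 279 CPM (249 to 309) in cluster 1. Pcdh17 had 108 CPM (92.9 to 120) against 181 CPM (159 to 190), and Pcdh19 33.7 CPM (29.2 to 37.6) against 69.9 CPM (58.2 to 77.6). Pcdh9 and Pcdh7 lay on the other side: Pcdh9 had 4951 CPM in cluster 0 and 3668 CPM in cluster 1, and Pcdh7 1038 against 848 CPM. Pcdh10 had 131 CPM (118 to 140) in cluster 2 and 96.1 CPM (68.2 to 113) in cluster 0, and cluster 5, at 124 CPM and up to 167, overlapped cluster 2. Without the called doublets both ends of the Pcdh10 order changed: cluster 5 was highest at 145 CPM, above cluster 2 at 134 CPM, and cluster 9 was lowest at 87.5 CPM, below cluster 0 at 96.5 CPM. Of 44 members at 1 CPM or more, 2 were above in cluster 0 against cluster 1 without overlap (7.23% of all genes) and 6 below (13.3%). Against cluster 2 the counts were 3 above (8.69%) and 4 below (7.7%) of 43, and between clusters 1 and 2 they were 7 above (15.7%) and 0 below (7.75%) of 46. The 7 that were higher in cluster 1 were Pcdh7, Pcdh8, Pcdh9, Pcdh11x, Pcdh15, Pcdh18 and Pcdh19. The members' shares were thus close to those of all genes in most of these 6 comparisons, without matching for level. Of the 8 members at 10 CPM or more in all nuclei, only Pcdh1 overlapped in every pair of these clusters. Clustered genes hardly entered these counts, with Pcdhgc4 below in cluster 0 against cluster 1 (4.40 against 7.92 CPM) and Pcdhgb4 below in cluster 0 against cluster 2. Pcdhgb4 and Pcdhgc4 were named after their values were seen.

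The 3 clustered families had different distributions over classes. They lie on chromosome 18, where all 14 alpha and all 21 gamma entries overlap other members on the same strand, so that their counts per gene are uncertain. Of the 21 beta genes only Pcdhb21 and Pcdhb22 overlap. The 14 alpha entries together ran at 21.2 CPM in neurons, 6.38 CPM in oligodendrocytes and 3.64 CPM in astrocytes, so that neurons had 5.81-fold the astrocyte level (3.05 to 11.4 over libraries) and lay above it in 11 of 11 libraries. Pcdha11.1, the alpha entry with the most UMIs, had 6.15 CPM in neurons and 0.701 CPM in astrocytes. The gene list holds that symbol a second time as Pcdha11, and which annotated gene each row stands for was not resolved. The 21 beta genes were level, at 49.4 CPM in neurons, 52.3 CPM in astrocytes and 41.7 CPM in oligodendrocytes. Pcdhb17 gave 14.8% and Pcdhb14 13.8% of beta UMIs. The 21 gamma entries were higher in astrocytes, meninges and vessels than in neurons. They summed to 51.1 CPM in neurons, 90.4 CPM in astrocytes and 124 CPM in leptomeningeal cells, and both of the latter lay above neurons in 11 of 11 libraries, astrocytes by 1.77-fold (1.51 to 1.95). Pericytes had 96.0 CPM, above neurons in 10 of 11 libraries, and vascular endothelium 78.0 CPM, above in 8 of 11. Oligodendrocytes were nearer to neurons at 58.7 CPM, above in 9 of 11. At 1000 UMIs a gamma UMI was seen in 4.22% of microglia, with 0.812% to 12.2% over libraries, a range that holds the 5.09% of neurons. Thinning left out 61.8% of microglia, and without it the shares were 4.94% and 20.1%.

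Within the gamma array the 3 C-type genes showed the steeper tilt to astrocytes. Together they had 29.7 CPM in astrocytes and 12.1 CPM in neurons, 2.45-fold (2.02 to 2.88) in 11 of 11 libraries, while the other 18 had 60.8 and 39.0 CPM, 1.56-fold (1.32 to 1.83). Pcdhgc3, known to act in dendrite growth, had 5.76 CPM in astrocytes (2.97 to 8.61) and 0.924 CPM in neurons (0.753 to 1.02). Pcdhgc4, known to matter for neuron survival, had 13 against 5.76 CPM, and Pcdhgc5 10.9 against 5.43 CPM. All 3 ranges were separate. At 1000 UMIs an alpha UMI was seen in 2.07% of neurons and 0.325% of astrocytes, a beta UMI in 4.78% and 4.61%, and a gamma UMI in 5.09% and 8.37%. Without thinning the neuron and astrocyte shares were 9.16% and 0.542% for alpha, 18.8% and 7.56% for beta, and 20.1% and 13% for gamma. Neurons had a median of 3926 UMIs and astrocytes of 1402, and the order of the gamma shares turned with thinning. Over the nuclei named neurons the gamma sum ran from 44.6 CPM in cluster 0 to 64.9 CPM in cluster 5. The alpha sum ran from 18.5 CPM in cluster 5 to 23.5 CPM in cluster 1. Astrocyte markers moved with the gamma sum of cluster 5: all 7 listed were measured there, and they summed to 1912 CPM (1593 to 2104) against 442 CPM (393 to 510) in cluster 0. The nuclei named neurons in cluster 5 also carried the precursor markers given above, against their label. The part of either marker set in the gamma and alpha sums was not tested.

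**Figure D3:**
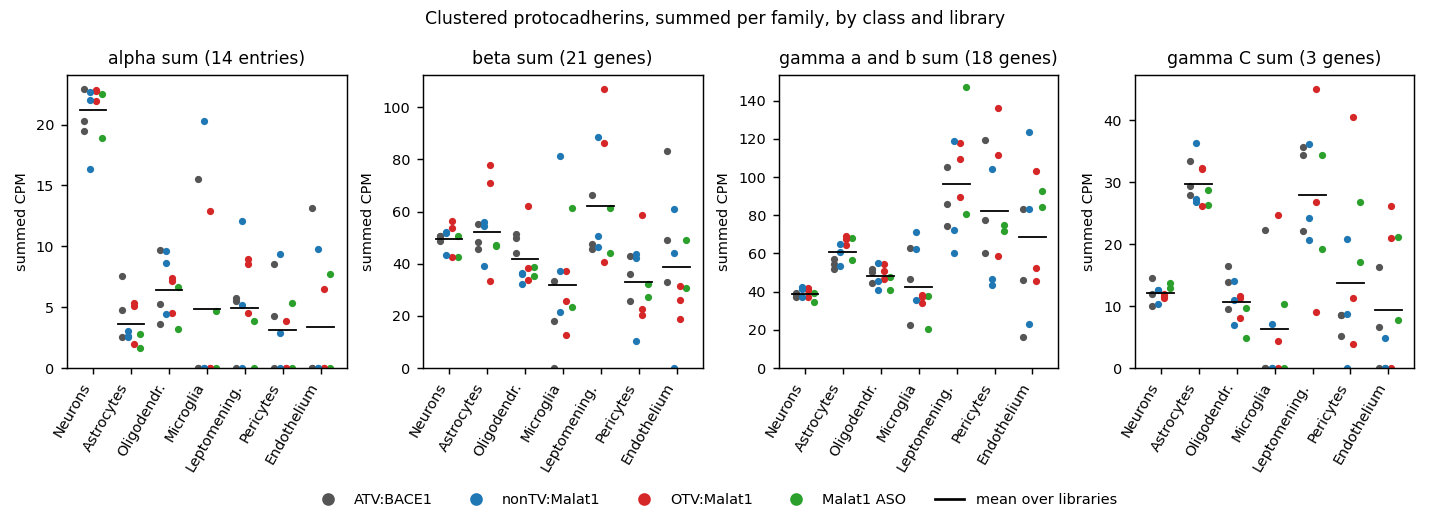
Summed levels of the alpha, beta, gamma A and B, and gamma C genes in each class, in CPM, with 1 point for each library and bars at the mean. Alpha genes are highest in neurons (21.2 CPM on average), beta genes are level between neurons and astrocytes, and gamma genes are higher in astrocytes than in neurons.

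Neurons that held 2 UMIs of 1 clustered family gave a view of how variable genes were shared out between nuclei. Of 76211 neurons, 515 had exactly 2 alpha UMIs, 2160 exactly 2 beta UMIs and 2182 exactly 2 gamma UMIs. Both UMIs came from the same gene in 20.2% of the alpha pairs (104 nuclei, exact Clopper-Pearson 95% interval 16.8% to 23.9%). For beta the share was 12.8% (276 nuclei, 11.4% to 14.3%) and for gamma 11.7% (255 nuclei, 10.4% to 13.1%). Drawing the 2 UMIs from all neurons with family UMIs would give 14%, 8.66% and 8.63%. The observed share was the higher in 10 of 11 libraries for alpha, 11 of 11 for beta and 10 of 11 for gamma. Without the called doublets the shares were 19.6%, 11.8% and 12.1%, the higher in 8, 9 and 9 of 11 libraries. Single clusters were less even. In cluster 0 the observed share was the higher in 9, 9 and 8 of 11 libraries and in cluster 2 in 7, 9 and 8 of 11. In cluster 1 it was the higher in 9 of 11 libraries for alpha, 6 of 11 for beta and 5 of 11 for gamma. In cluster 5 the counts were 4 of 9, 5 of 11 and 9 of 11, and in cluster 9 they were 1 of 6, 3 of 11 and 2 of 11, with no more than 9 such nuclei in any library of cluster 9. Astrocytes gave 8.98% (15 of 167 nuclei, 5.11% to 14.4%) for gamma, against 8.63% across nuclei, and that interval also holds the neuron share. For beta they gave 8.75% (7 of 80 nuclei, 3.59% to 17.2%) against 8.67%. The astrocyte share was the higher in 4 of 11 libraries for gamma and 5 of 11 for beta. Oligodendrocytes gave 25.0% for beta (11 of 44 nuclei, 13.2% to 40.3%) against 7.48% across nuclei, the higher in 9 of 11 libraries, and 10.9% for gamma (6 of 55 nuclei, 4.11% to 22.2%) against 7.02%, the higher in 5 of 11. These intervals cover counting error only, and no test was made. Reads of overlapping alpha or gamma entries may have been assigned to a gene unequally, and this was not tested.

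**Figure D4:**
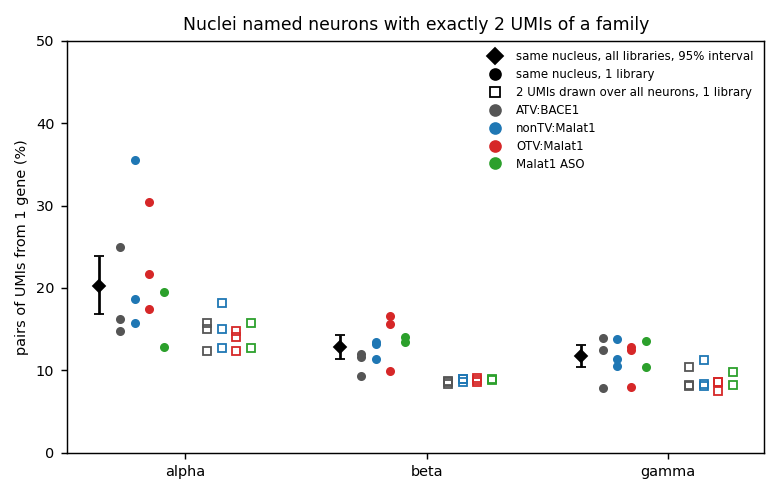
Percent of neurons with exactly 2 UMIs of a clustered family in which both UMIs came from 1 gene, with exact 95% intervals, beside the percent given by drawing UMIs across all neurons. The observed percent is above the drawn one in all 3 families, for example 12.8% against 8.66% for beta.

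No protocadherin passed the test by dosing group. In all nuclei 67 members were tested with edgeR's quasi-likelihood test, and 0 had an adjusted p under 0.05 in any of 4 contrasts, where 0% of 21409 genes were called. With replicate number as a block, which pairs the libraries, 0 members passed again, and the genes called were 4 (0.0187%) for Malat1 ASO and 0 (0%) in each of the other contrasts. The 3 contrasts against ATV:BACE1 share those control libraries. Pcdh9 stood at 4115, 4815 and 4280 CPM in the ATV:BACE1 libraries, at 4506, 4848 and 4361 CPM with OTV:Malat1, at 4148, 4528 and 4304 CPM with nonTV:Malat1, and at 4447 and 4358 CPM with Malat1 ASO. These groups overlap. Its log2 difference of OTV:Malat1 from ATV:BACE1 was 0.0027 with a 95% interval of -0.27 to 0.28. Pcdh15 stood at 630, 804 and 738 CPM with ATV:BACE1, at 716, 742 and 777 CPM with OTV:Malat1, at 634, 785 and 757 CPM with nonTV:Malat1, and at 668 and 731 CPM with Malat1 ASO. Its log2 difference for OTV:Malat1 was -0.014 (-0.31 to 0.28). Over the 8 members at 10 CPM or more the log2 differences from ATV:BACE1 ran from -0.08 to 0.07 with OTV:Malat1, from -0.15 to 0.10 with nonTV:Malat1 and from -0.14 to 0.09 with Malat1 ASO, and from -0.08 to 0.08 for OTV:Malat1 against nonTV:Malat1. Their standard errors were 0.098 to 0.15, and DESeq2 also called 0 members in the 4 contrasts, where it called 0.00467% of gene tests. Malat1 itself, although lower in each OTV:Malat1 library, did not pass edgeR's quasi-likelihood test in all nuclei. Its log2 difference from ATV:BACE1 was -0.79 (SE 0.14) at an edgeR adjusted p of 0.999983, or 0.297 with the replicate block, while DESeq2 gave an adjusted p of 3.87e-09. The 0 calls by edgeR in all nuclei therefore do not show that protocadherins were unchanged. The intervals give the sizes that the fit without the block allows. In neurons the SE for Malat1 in that contrast was 0.13 without the block and 0.088 with it, at edgeR adjusted p-values of 0.999986 and 0.0476.

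**Figure D5:**
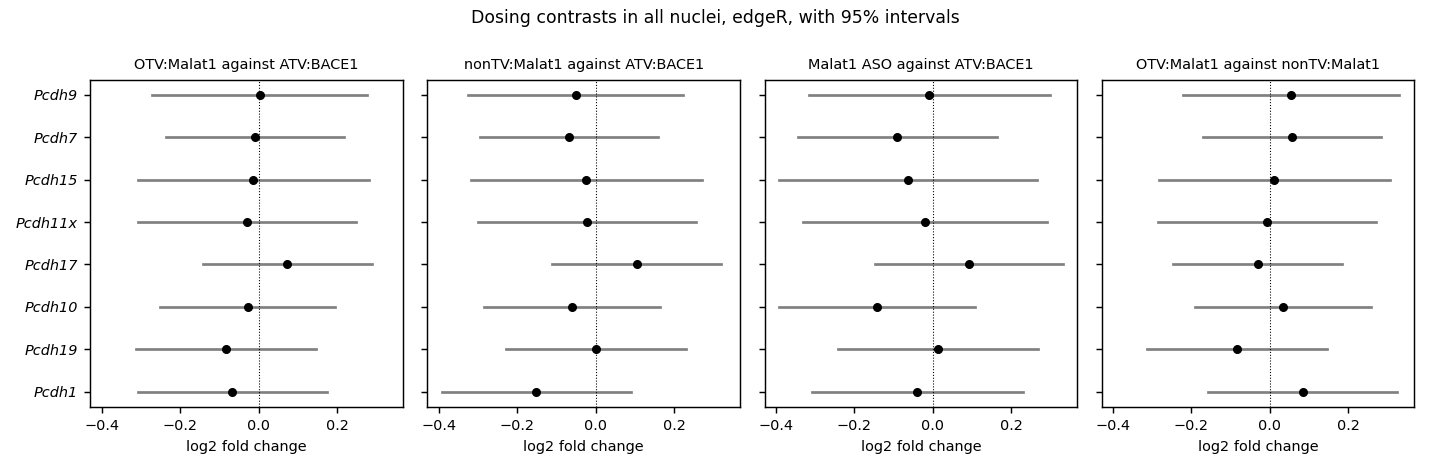
Log2 differences between dosing groups in all nuclei for the 8 protocadherins at 10 CPM or more, with 95% intervals from edgeR's quasi-likelihood fit without a replicate block. Every interval includes 0, and the values run from -0.15 to 0.10.

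The 59 tested members under 10 CPM varied more widely, for example from -0.91 to 0.95 on the log2 scale with Malat1 ASO, where their standard errors ran from 0.13 to 0.69. At an unadjusted p under 0.05 there were 0 members for OTV:Malat1 against ATV:BACE1 (0.752% of all genes), 1 for nonTV:Malat1 (0.901%), 3 for Malat1 ASO (1.75%) and 1 for OTV:Malat1 against nonTV:Malat1 (0.766%). With the replicate block the members were 1, 4, 3 and 3 in that order, and the shares of all genes rose to 3.77%, 5.28%, 8.87% and 3.97%. Without the block they were low beta, gamma and alpha genes, and with it Pcdh1 also entered, at -0.15 for nonTV:Malat1. Pcdhb6 had 0.864, 1.44 and 0.959 CPM with OTV:Malat1 and 0.570, 0.722 and 0.586 CPM with nonTV:Malat1. Those 3 values each lay above the other 3, with a log2 difference of 0.76 (SE 0.27) that edgeR's quasi-likelihood test gave an adjusted p of 0.999983. Pcdhb3 had 0.767, 0.539 and 0.795 CPM with ATV:BACE1 and 0.426 and 0.312 CPM with Malat1 ASO, a log2 difference of -0.91 (SE 0.32) at an edgeR adjusted p of 0.999958. Pcdhga5 differed by -0.43 (SE 0.19) with nonTV:Malat1, and Pcdhb21, the member with the smallest p for OTV:Malat1 against ATV:BACE1, by -0.29 (SE 0.16). The median log2 difference over the members against ATV:BACE1 was -0.010 with OTV:Malat1, -0.023 with nonTV:Malat1 and -0.063 with the free ASO, beside 0.0068, -0.0020 and -0.0015 over all tested genes. With the replicate block these medians were 0.0023, -0.034 and -0.029 over the members, beside 0.0081, -0.0029 and 0.0038 over all tested genes.

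Tests within cell types gave no call either. Over 9 classes, 33 contrasts and 548 member tests, edgeR's quasi-likelihood test called 0 members (0.00192% of gene tests passed), as did DESeq2 (0.00351%). At an unadjusted p under 0.05 edgeR had 16 of the member tests, where 2.16% of gene tests lay. Over the 5 neuron clusters 0 of 724 member tests passed (0.00131% of gene tests), and DESeq2 also called 0 members (0.00328%). At an unadjusted p under 0.05 edgeR had 22 there, where 1.53% of gene tests lay. With the replicate block 0 members passed in either set, and the genes called were 0.0278% and 0.0305% of gene tests. The blocked fits had 35 member tests in the classes and 42 in the clusters at an unadjusted p under 0.05, where 4.93% and 5.09% of gene tests lay. Without the block the smallest adjusted p was 0.691, for Pcdh15 in pericytes with nonTV:Malat1. There the ATV:BACE1 libraries had 25.7, 34.2 and 25.8 CPM and the nonTV:Malat1 libraries 58.2, 281 and 32.8 CPM, so that 1 library of 40 pericyte nuclei carried most of the difference. Without the called doublets no pericyte library exceeded 64.4 CPM of Pcdh15. In oligodendrocytes Malat1 stood at 15152 to 20265 CPM with OTV:Malat1 against 82273 to 94565 CPM with ATV:BACE1. There it passed edgeR's quasi-likelihood test, at -2.44 (SE 0.20) and an adjusted p of 2.87e-06. The nonTV:Malat1 libraries, at 64847, 75854 and 76431 CPM, also lay below every ATV:BACE1 library in that class. Their log2 difference for Malat1 was -0.35 (-0.74 to 0.04), or -0.35 (-0.57 to -0.13) with the replicate block. The edgeR adjusted p-values were 0.999954 and 0.999972. With OTV:Malat1 in that class the log2 difference of Pcdh9 was 0.03 (-0.37 to 0.42). Pcdh15 differed by 0.09 (-0.32 to 0.50). Pcdh17 differed by 0.37 (-0.02 to 0.77), and by 0.39 (0.16 to 0.63) with the replicate block, at an edgeR adjusted p of 0.999765. Within replicates 1, 4 and 5 the log2 difference of its CPM was 0.63, 0.47 and 0.36. By CPM, 5 of 8 nonclustered members (Pcdh1, Pcdh7, Pcdh9, Pcdh15 and Pcdh17) were the higher with OTV:Malat1 in 3 of 3 pairs in oligodendrocytes, against 24% of 8664 genes at 10 CPM or more in each of the 3 main classes. In astrocytes it was 3 of 8 (21.2%) and in neurons 2 of 8 (20.6%), and 0 members were lower in every pair in any of the 3 classes (4.04%, 4.16% and 2.62% of genes). With nonTV:Malat1 the members higher in every pair were 2 in oligodendrocytes (13.8%), 1 in astrocytes (9.76%) and 1 in neurons (13.4%), and those lower were 0 (11%), 0 (15%) and 3 (9.31%). CPM totals include Malat1, so its fall raises the CPM of every other gene in these libraries. The fitted differences given above are scaled by TMM instead. By CPM in oligodendrocytes, Pcdh9 differed by 0.0071 and 0.031 on the log2 scale in replicates 4 and 5, and Pcdh15 by 0.011 in replicate 5. The part of the Malat1 fall in these differences was not tested. This class also includes the 779 nuclei of cluster 5, and their share per library was not compared. For Pcdh7 the blocked fit gave 0.22 (-0.01 to 0.45) at an edgeR adjusted p of 0.999765.

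Libraries of different replicate numbers, which also differ in batch and in sex, age or both, did differ in protocadherins. With dosing group in the fit, 18 of 67 members passed edgeR's quasi-likelihood test at an adjusted p under 0.05. Over 21409 genes 47% passed, so the members' share was the lower. These shares are not matched for level: of the 8 members at 10 CPM or more in all nuclei, all but Pcdh7 were among the 18. DESeq2 called 7 members, where it called 39.4% of the genes, and 1 of the 7 (Pcdhga12) was not among the 18. Pcdhb17 had the smallest adjusted p (0.00358). It stood at 6.54, 5.54, 5.89 and 6.22 CPM in the replicate 1 libraries, at 7.04, 8.29 and 8.0 CPM in those of replicate 4, and at 8.07, 7.96, 8.45 and 7.77 CPM in those of replicate 5. Every replicate 1 library lay below every library of replicates 4 and 5, a split in which sex and batch cannot be told apart. Pcdh15 had a mean of 662 ± 39.7 CPM (SD, n = 4) in replicate 1 libraries, 777 ± 32.1 CPM (n = 3) in replicate 4 and 751 ± 20.6 CPM (n = 4) in replicate 5, at an edgeR adjusted p of 0.0234. Pcdh10 had 99.9 ± 6.26, 111 ± 4.84 and 117 ± 5.60 CPM (edgeR adjusted p = 0.0110). Pcdh1 was lowest in replicate 4, with 21.5 ± 1.64, 19.6 ± 0.144 and 24.3 ± 1.23 CPM (edgeR adjusted p = 0.0228). Pcdh9 was highest there, with 4304 ± 201, 4731 ± 176 and 4326 ± 40.3 CPM (edgeR adjusted p = 0.0462).

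The other 13 were Pcdh11x, Pcdh17, Pcdh19, Pcdha6, Pcdha9, Pcdhac2, Pcdhb11, Pcdhb19, Pcdhb22, Pcdhga3, Pcdhga8, Pcdhgb6 and Pcdhgc5. The highest mean lay in replicate 4 for 10 of the 18, in replicate 5 for 7 and in replicate 1 for 1 (Pcdhgc5). Ratios of the highest to the lowest mean ran from 1.08 for Pcdh19 to 1.74 for Pcdhga3. The count rests on all libraries: it was 5 without nonTV:Malat1 replicate 1, 6 without ATV:BACE1 replicate 4, 7 without nonTV:Malat1 replicate 4, 8 without nonTV:Malat1 replicate 5, 9 without either Malat1 ASO library, and 11 when the library left out was replicate 1 of ATV:BACE1, replicate 1 of OTV:Malat1 or replicate 5 of OTV:Malat1. Fits on single classes, added after the data were seen, called 16 of 66 members in neurons (48.4% of genes), 4 of 12 in oligodendrocytes (17.9%) and 2 of 25 in astrocytes (19.5%).

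Genes that work with protocadherins were read the same way. A list of 24 genes of clustered promoter choice, such as the insulator protein gene Ctcf and the cohesin gene Rad21, had 0 called by dosing group in either direction in all nuclei, in the classes and in the neuron clusters. The same 0 held for 23 genes that act on protocadherin tails, such as the WAVE gene Wasf1, for the 8 of 10 genes of the Pcdh15 complex that could be tested in all nuclei, and for 34 other cadherins. Over all genes 0% of tests passed in all nuclei, 0.00192% in the classes and 0.00131% in the neuron clusters. By replicate number 13 of the 24, 16 of the 23, 2 of the 8 and 20 of the 34 passed edgeR's quasi-likelihood test in all nuclei, against 47% of all genes.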

How the data were processed

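The authors deposited 1 matrix of UMI counts per gene and nucleus for 11 single-nucleus libraries, with the class name, cluster number, doublet call and batch of each nucleus, per the file headers. Per the submitters' processing notes, Cell Ranger 5.0.0, Seurat 4 and the mm10 build were used. The deposited table also gives the percent of mitochondrial UMIs and prediction and doublet scores as a fraction from 0 to 1, per the file headers; these values were not tested. The sources used here do not say how nuclei were filtered or whether intronic reads were counted. The lowest nucleus held 499 UMIs.

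Counts were summed per library, class and neuron cluster (20 or more nuclei a library). Levels are CPM of these sums. Dosing groups were compared with edgeR 4.0.16 (quasi-likelihood, TMM, filterByExpr, Benjamini-Hochberg over all genes, threshold 0.05) in R 4.3.3, 1 fit over the 4 groups and at least 2 libraries a group. The script was tested on simulated data without a replicate effect, so that test does not show what the fit can find in these libraries. DESeq2 1.42.0, no TMM, no count filter, Malat1 left out, doublets left out, nuclei under 1000 UMIs left out, each library left out and a replicate block were alternatives. Same-numbered libraries deviated together from their group means (correlation 0.452 to 0.817 over 15 pairs and 15333 genes), so the numbers pair the libraries. The 30 other pairs had -0.754 to 0.341. Deviations within a group sum to 0, so that range is not an independent baseline. Gene spans came from GENCODE M21 and promoters from RefSeq. Members named in the text had a call, the smallest p of a contrast, the highest level of a subfamily, class or cluster, or 1 of the 8 largest ratios; exceptions are stated. The members and lists were chosen with earlier results of these data known. Depth limits low members, and p-values measure the spread between libraries.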

Additional observations from a re-analysis of the deposited data

How the results depend on the processing

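With replicate number as a replicate block, 0 members passed by dosing group in all nuclei, in the classes and in the neuron clusters, so the pairing changed no call of a member. The count of 0 members was also kept in all 3 sets of fits under DESeq2, without TMM, without Malat1, without doublets, without nuclei under 1000 UMIs and with each library left out in turn (0 to 0). Without a filter on low counts it was 0 in all nuclei and the neuron clusters but 1 over classes: Pcdh15 in pericytes for nonTV:Malat1 against ATV:BACE1, at a log2 difference of 1.73 (SE 0.43) and an edgeR adjusted p of 0.0389, against 1.71 (SE 0.59) and 0.691 with the filter. The cause was not tested. In pericytes no library exceeded 64.4 CPM of Pcdh15 once the called doublets were left out. By replicate number the 18 members became 7 with DESeq2 and 5 to 14 with 1 library left out; the cause was not tested. In fits added after the data were seen, with fewer genes and nuclei, it was 4 in oligodendrocytes and 2 in astrocytes. Of 26 named members, the highest class stayed the same for 24 without doublets, 19 without nuclei under 1000 UMIs and 20 with counts pooled over libraries. The ratio of the highest to the lowest neuron cluster moved by more than its SD for 8 of the 26 without doublets and for 0 under the other 2 settings. Depth limits the 23 members under 1 CPM and the vascular classes.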
